A study of Mus musculus with 3 samples.

Results

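The genes described here are 42 members of the RAS and mitogen-activated protein (MAP) kinase cascade and its inhibitors, chosen by name from the 50600 genes of the deposited tables. They comprise 3 RAS GTPases, 5 RAS GTPase-activating proteins (RAS GAPs), 3 genes of the RAF and KSR group, 6 MAP2K, 5 MAPK, 5 MAP3K and 3 MAP4K kinases, 4 Sprouty and SPRED inhibitors and 8 dual-specificity phosphatases (DUSPs). All 42 were matched by gene identifier. The samples were 3 libraries of primary mouse T cells of strain C57BL/6NJ, numbered 2, 3 and 4 as biological replicates, which form a single group with no treatment named in the labels. The labels give age as unknown and sex as not collected, carry 1 donor identifier for all 3, cite a CD4+ T cell differentiation protocol, and call the assay total RNA-seq beside a poly(A) library protocol, while the alignment names in the file headers read Th0, activated and 0 h. No second group was analysed, so levels, the order of levels and the spread among libraries were described. The labels do not state separate animals, so any p-value here speaks of these 3 libraries alone.

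RAS proteins are membrane-bound switches that are active when bound to GTP, and RAS GAPs turn them off by speeding the hydrolysis of that GTP. Active RAS recruits RAF kinases, which phosphorylate the MAP2Ks MEK1 and MEK2, which in turn phosphorylate ERK, while parallel MAP3K and MAP2K tiers lead to the JNK and p38 kinases. DUSPs remove the activating phosphates from MAP kinases, Sprouty and SPRED proteins restrain the pathway at the level of RAS and RAF, and several of these inhibitors are themselves induced by ERK. In T cells the cascade is engaged by the antigen receptor through the RAS activators of the RASGRP and SOS families.

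Library totals ranged from 28340521 to 59698913 counted read pairs. The labelled cell type held against its markers: 10 of 10 T cell genes reached 1 TPM (a transcript level made from counts by correcting for gene length and library total) in each library, with a summed level of 9827 to 10024 TPM and Cd4 at 1044 ± 24.65 TPM (SD, n = 3). The CD8 coreceptor genes differed, with Cd8a at 0.534 ± 0.182 TPM and Cd8b1 at 36.5, 33.9 and 30.5 TPM. Of 8 B cell genes 7 passed, with a summed level of 39.1 to 56.6 TPM and Ebf1 at 0.116 to 0.343 TPM. For the macrophage and monocyte, dendritic cell, neutrophil, NK cell and erythroid lists, sums stayed between 0.5475 and 5.354 TPM, and Cd14, Fcgr1, Xcr1, Ly6g, Elane and Mpo had 0 counts. Replicate 2 stood apart in sex-linked genes, with Xist at 151 TPM against 0.221 and 0.399 TPM in replicates 3 and 4, and Ddx3y at 0.248 against 79.96 and 72.3 TPM. These values go against 1 donor for all 3 libraries; whether replicates 3 and 4 share an animal is not known. In such bulk RNA, fewer cells of a type and less RNA per cell cannot be told apart.

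Nearly all of the chosen genes were detected. Of the 42 members, 41 were at 1 TPM or more in all 3 libraries, where 23.4% of all genes and 46.1% of protein-coding genes were. The members were chosen with earlier results of these data known, so this share is a description. The exception was the inhibitor gene Spry2. The median member stood at 44.8 ± 1.80 TPM, and 27 members exceeded the 33.4 TPM of the median detected protein-coding gene. At the ends of the range, 11 members were at 100 TPM or more, and 7 were under 10 TPM, of which 6 were inhibitors and 1 was a kinase.

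**Figure D1:**
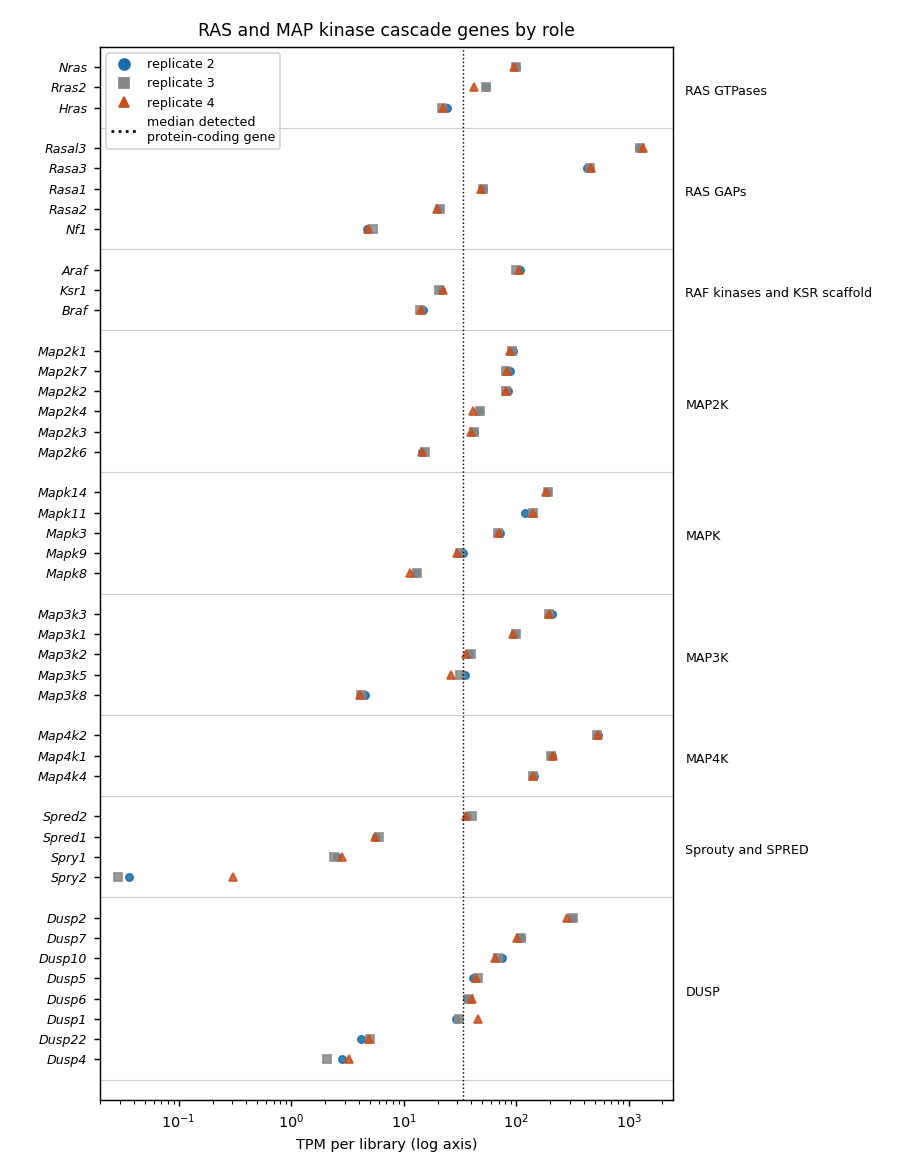
TPM of the 42 members in replicates 2 (circles), 3 (squares) and 4 (triangles) on a log axis, grouped by role, with the median detected protein-coding gene (33.4 TPM) as a dotted line. Rasal3 is the highest member and Spry2 the lowest, and for most genes the 3 points lie on top of each other.

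RAS GTPases were present at moderate levels, led by Nras. Nras (chromosome 3, 103058285 to 103067914, plus strand), which encodes N-RAS, was at 99.5, 100.1 and 96.3 TPM in replicates 2, 3 and 4. Hras, which encodes H-RAS, was at 24.05, 22.09 and 22.31 TPM. The ranges of Nras and Hras did not overlap, and Nras exceeded Hras by 4.31-fold, with Hras minus Nras at -2.11 ± 0.065 on the log2(TPM + 0.1) scale (SD, n = 3). Rras2, which encodes the RAS-related GTPase TC21, lay between them at 54.15, 53.51 and 42.42 TPM, lowest in replicate 4.

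Of the RAS GAPs, Rasal3 and Rasa3 stood far above the others. Rasal3, whose product is a RAS GAP of haematopoietic cells (ENSMUSG00000052142.15, chromosome 17, 32390659 to 32403583, minus strand), was at 1240.1, 1258 and 1336 TPM, the highest level of any member in every library, at percentile 99.3 of detected protein-coding genes. Rasa3, a GAP that acts on RAS and RAP1, was at 423.6, 456.7 and 463 TPM. Together the pair held 95.8 ± 0.234% of the summed RAS GAP level.

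The other 3 RAS GAPs were in the range of the GTPases or below it. Rasa1, which encodes p120 RasGAP, was at 50.83, 51.21 and 49.15 TPM and Rasa2, another GAP of the same family, at 20.4, 20.9 and 19.8 TPM. Nf1, the neurofibromin gene, was the lowest of the group at 4.74, 5.30 and 4.83 TPM. The summed level of the 5 RAS GAPs was 10.5 ± 0.966 times that of the 3 RAS GTPases. Without Rasal3 and Rasa3 the ratio was 0.442 ± 0.0155, so the excess in transcripts rested on those 2 genes. These sums cover only the members named here, and the RAS family has others.

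The RAF and KSR group was led by Araf. Araf (chromosome X, 20797814 to 20860519, plus strand), which encodes the kinase A-RAF, was at 107.7, 98.8 and 105.3 TPM. Braf, the gene of B-RAF, the RAF kinase with the highest basal activity, was at 14.7, 13.9 and 14.3 TPM. Araf exceeded Braf in 3 of 3 libraries, by 2.85 ± 0.027 on the log2 scale. Ksr1, a scaffold that holds RAF, MEK and ERK together, was at 21.3, 20.6 and 22.6 TPM. Araf is X-linked, and its highest value was in replicate 2, the library with Xist; by edgeR's goodness of fit its adjusted p was 1.

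Among the MAP2Ks, the 2 MEK genes of the ERK arm had nearly equal levels. Map2k1 (MEK1) was at 94.6, 91.9 and 87.95 TPM and Map2k2 (MEK2) at 84.3, 81.5 and 81.0 TPM, with Map2k2 minus Map2k1 at -0.15 ± 0.030. This order depended on the gene length used. With the length of the principal transcript in place of all merged exons (an alternative chosen after seeing the data), the difference was 0.60 ± 0.030, so which MEK transcript was the more abundant is not settled by these counts.

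The MAP2Ks of the stress-activated arms covered a wider range. Map2k7 (MKK7), which acts on JNK alone, was at 88.7, 81.9 and 82.1 TPM, above Map2k4 (MKK4), which acts on JNK and p38, at 46.49, 47.45 and 41.41 TPM. Merged exons of Map2k7 overlapped those of another annotated gene on the same strand over 35.2% of their length, and it was the only 1 of the 42 members with such an overlap. Read pairs in shared exons were taken to be counted for neither gene, so the level of Map2k7 may be too low. The size of this effect was not measured. For the p38 kinases, Map2k3 (MKK3) was at 42.1, 42.6 and 40.1 TPM and Map2k6 (MKK6) at 14.4, 15.5 and 14.4 TPM. Map2k3 exceeded Map2k6 by 1.49 ± 0.047 on the log2 scale, in 3 of 3 libraries.

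In the MAPK tier the p38 genes were the highest. Mapk14, which encodes p38α, was at 189, 192.5 and 182.5 TPM, and Mapk11, which encodes p38β, at 120.5, 140 and 141.7 TPM. Mapk14 exceeded Mapk11 in every library, by 0.65, 0.46 and 0.36 on the log2 scale. The gap was widest in replicate 2, where Mapk11 was lowest. Mapk3, the ERK1 gene, was at 71.94, 68.35 and 70.18 TPM.

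The JNK genes were the lowest of that tier. Mapk9 (JNK2) was at 33.7, 31.6 and 29.9 TPM and Mapk8 (JNK1) at 12.97, 13.13 and 11.4 TPM, a difference of 1.34 ± 0.067. With principal transcript lengths it was 0.04 ± 0.067, less than the spread between libraries. The merged exons of Mapk8 cover 9255 bases and its principal transcript 2587 bases. By arm, the median was 82.3 ± 1.79 TPM over the 5 ERK arm kinases (Araf, Braf, Map2k1, Map2k2 and Mapk3). It was 87.8 ± 5.64 TPM over the 4 p38 arm kinases (Map2k3, Map2k6, Mapk11 and Mapk14), which ranged from 14.8 to 188 TPM. Over the 4 JNK arm kinases (Map2k4, Map2k7, Mapk8 and Mapk9) it was 38.4 ± 2.42 TPM. Map2k4, which acts on JNK and p38, was counted in the JNK arm alone, and only the ERK arm includes RAF kinases. With this assignment the JNK arm median was below both others in every library, and no other assignment was tried.

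Upstream, the MAP3K genes ranged from Map3k3 to Map3k8. Map3k3 (MEKK3) was at 208, 198 and 195 TPM, against 37.9, 39.3 and 35.5 TPM for its close relative Map3k2 (MEKK2), a difference of 2.41 ± 0.073. Map3k1, a kinase of the JNK arm that also carries a ubiquitin ligase domain, was at 95.6, 99.3 and 94.2 TPM. Map3k5, the oxidative stress kinase ASK1, was at 34.76, 31.51 and 26.15 TPM, lowest in replicate 4. Map3k8, the kinase TPL2 of inflammatory ERK activation, was the lowest member of the kinase side at 4.57, 4.17 and 4.12 TPM.

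The MAP4K genes formed the highest kinase tier. Map4k2, the germinal centre kinase gene (ENSMUSG00000024948.14, chromosome 19, 6341135 to 6355615, plus strand), was at 532, 518 and 532 TPM, which placed it second among all members behind Rasal3. It exceeded Map4k1, the gene of the haematopoietic kinase HPK1, by 2.53 ± 0.0490 times, with Map4k1 at 207, 204 and 215 TPM. Map4k4, which encodes a kinase upstream of JNK, was at 144, 142 and 141 TPM. Map4k1 minus Map4k4 was 0.55 ± 0.048 by merged exons and -0.57 ± 0.048 by principal transcripts, so the order of those 2 was set by the length, whereas Map4k2 was the highest by either length.

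The Sprouty and SPRED inhibitors were the lowest group, with a median of 4.17 ± 0.0635 TPM. Spred2, which encodes a SPRED protein that acts on RAS and RAF signalling, was at 36.4, 40.6 and 35.6 TPM and held 81.6 ± 1.10% of the group's summed level. Spred1 followed at 5.68, 6.07 and 5.51 TPM and Spry1 at 2.53, 2.40 and 2.81 TPM. Spry2 (chromosome 14, 105891949 to 105896819, minus strand) had 1, 1 and 5 counts. Those counts correspond to 0.0364 TPM (95% exact Poisson interval 0.000922 to 0.203), 0.0288 TPM (0.000729 to 0.161) and 0.301 TPM (0.0977 to 0.702), and the 3 intervals overlap. The intervals cover counting error only.

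The DUSP genes were led by Dusp2. Dusp2, which encodes the nuclear phosphatase PAC1 of activated lymphocytes (ENSMUSG00000027368.6, chromosome 2, 127336159 to 127338376, plus strand), was at 311.3, 322.5 and 281.3 TPM and held 50.2 ± 2.02% of the summed DUSP level. Dusp7, a cytoplasmic ERK phosphatase, was at 110.2, 110.1 and 101.9 TPM, above its relative Dusp6, the feedback phosphatase of ERK, at 36.56, 38.03 and 40.33 TPM. Dusp10, which acts on JNK and p38, was at 74.6, 69.1 and 65.2 TPM.

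Of the other DUSPs, Dusp5, a nuclear ERK phosphatase, was at 41.27, 46.15 and 44.17 TPM. Dusp4, a nuclear phosphatase of the inducible class like Dusp1, Dusp2 and Dusp5, was at 2.83, 2.06 and 3.30 TPM on 102, 94 and 72 counts, so Dusp5 exceeded it by 3.98 ± 0.38 on the log2 scale. Dusp22, an atypical DUSP that dephosphorylates Lck, was at 4.14, 5.00 and 4.89 TPM. Its merged exons (1743 bases) are shorter than its principal transcript (3015 bases), and with the latter it was at 1.67, 2.01 and 1.97 TPM, against 1.97, 1.43 and 2.29 TPM for Dusp4. Dusp2 was the highest DUSP by either length, and which of Dusp4 and Dusp22 was the lowest depended on the length.

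Dusp1 was the 1 member that varied among the libraries more than genes of its abundance. Dusp1, which encodes the stress-induced nuclear phosphatase MKP-1 (ENSMUSG00000024190.6, chromosome 17, 26505590 to 26508519, minus strand), was at 29.43, 31.05 and 46.13 TPM, on 1045, 1394 and 992 counts. Replicate 4 was the high library, 1.53 times the mean of the others. By edgeR's goodness of fit to a model with no difference among libraries, its adjusted p was 0.0230 by the Benjamini-Hochberg method over all 13498 genes tested. Of the 41 members tested it was 1, and the call was made for 0.533% of all genes. The call was lost when any 1 library was left out, with adjusted p of 0.0649 without replicate 2, 0.207 without replicate 3 and 1 without replicate 4.

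The same library was high for 3 immediate early genes that encode subunits of the transcription factor AP-1. Fos was at 30.8, 27.2 and 122 TPM (edgeR goodness of fit, adjusted p = 2.32e-48), Jun at 51.7, 42.8 and 143 TPM (adjusted p = 3.72e-30) and Junb at 277, 283 and 423 TPM (adjusted p = 0.00533). All 3 calls were kept without replicate 2 or 3 and lost without replicate 4. The summed level of 7 heat shock genes was 1737, 2196 and 2409 TPM and that of the 8 B cell genes 51.0, 56.6 and 39.1 TPM, so the first was highest and the second lowest in replicate 4. Of the heat shock genes 3 varied by the same test, and among them Hspa1b was at 86.0, 23.9 and 237 TPM. Hspa1a, its near-identical copy, and Hspe1 were also highest in replicate 4, while Hsph1, Dnajb1, Hsp90aa1 and Hspa8 were highest in replicate 3. Replicate 4 was in addition the shallowest library. The part of each in the Dusp1 result was not tested.

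**Figure D2:**
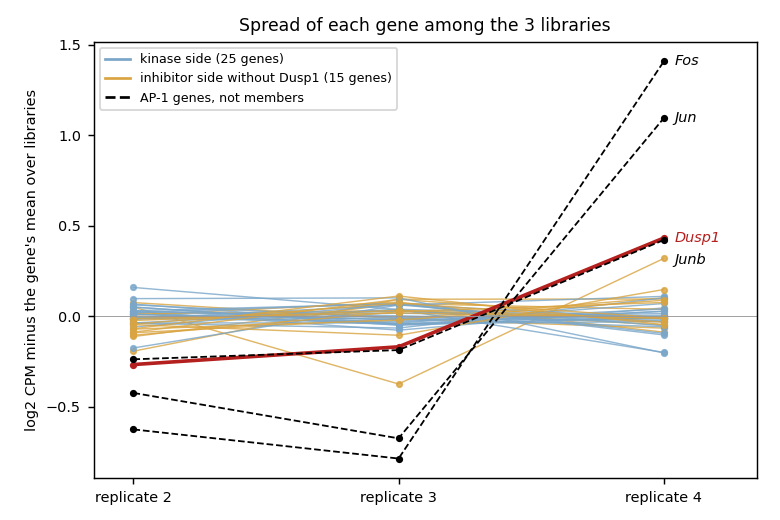
TMM-scaled log2 CPM (counts scaled to the library total) of the 41 members tested, minus each gene's mean over the 3 libraries, with lines joining the values of a gene and replicates in no order of time. Dusp1 (red) lies with Junb in replicate 4, below Fos and Jun, while most members stay near 0. The inhibitor line lowest in replicate 3 is Dusp4, on 94 counts there.

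The promoter windows of the members were searched for 4 motifs on both strands. Sequences came from RefSeq on GRCm38.p6, which is the mm10 build, in windows of 250 bases before to 50 bases after each start, and 37 of the 42 members had one, all but Map3k2, Map3k8, Map4k4, Mapk3 and Dusp4. The cyclic AMP response element TGACGTCA was found in Dusp1 and Braf, or 2 of 37 genes, against 2.03% of all 27025 genes with a window. The CArG box, bound by serum response factor, was found in Dusp5 alone, against 1.81% of all genes. The AP-1 motif TGACTCA or TGAGTCA was found in Ksr1 alone (5.95% of all genes) and the ETS motif CCGGAAGT in Nf1 alone (4.31%). These matches are letters in a window and show no binding.

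The Dusp1 stretch is shown because Dusp1 was the varying member, and the others because they hold a pair of matches. Each is written 5′ to 3′ on the gene's strand, with the motif in capitals. The Dusp1 stretch is chr17:26508520-26508722 (minus strand), with its motif 143 bases upstream of the RefSeq start. The Braf stretch is chr6:39725529-39725570 (minus strand), with matches 99 and 81 bases upstream. The Dusp5 stretch is chr19:53529055-53529090 (plus strand), where a pair of CArG boxes lie end to end, 82 and 72 bases upstream.
Dusp1: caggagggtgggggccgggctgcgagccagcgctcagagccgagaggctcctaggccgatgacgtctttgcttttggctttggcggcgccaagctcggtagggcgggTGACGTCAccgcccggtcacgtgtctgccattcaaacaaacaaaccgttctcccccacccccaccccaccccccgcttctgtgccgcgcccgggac
Braf: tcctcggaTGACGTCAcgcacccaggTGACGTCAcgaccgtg
Dusp5: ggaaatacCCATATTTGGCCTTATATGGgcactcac
Braf was at 14.7, 13.9 and 14.3 TPM. Whether any of these motifs bears on the level of a gene or its spread among libraries was not tested.

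Set against each other, the kinase side was higher than the inhibitors by the median and not by the sum. The kinase side (25 genes: RAS GTPases, RAF and KSR, MAP2K, MAPK, MAP3K and MAP4K) had a median of 70.2 ± 1.80 TPM and the inhibitor side (17 genes: RAS GAPs, Sprouty and SPRED, DUSP) one of 38.2 ± 2.00 TPM. The difference of medians on the log2(TPM + 0.1) scale was 0.98, 0.84 and 0.80 in replicates 2, 3 and 4, or 0.87 ± 0.096. Summed levels were 2355 ± 27.95 TPM for the kinase side and 2455 ± 55.6 TPM for the inhibitors, and without Rasal3 the inhibitors summed to 1177 ± 27.4 TPM. The ratio of the sums, kinase side over inhibitors, was 0.960 ± 0.0333 and turned to 1.09 ± 0.0404 with principal transcript lengths.

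**Figure D3:**
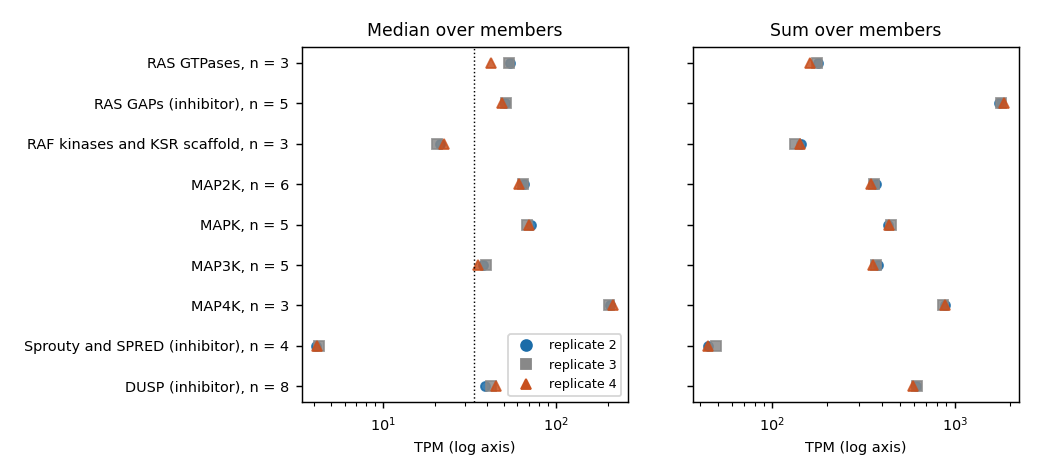
Median (left) and summed (right) TPM of each role in replicates 2, 3 and 4, on log axes, with the median detected protein-coding gene as a dotted line on the left. The MAP4K genes have the highest median, the RAS GAPs the highest sum, and the Sprouty and SPRED genes are lowest by both.

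The medians of the 5 kinase tiers kept the same order in every library. Median levels went from 21.5 ± 1.02 TPM for RAF and KSR to 63.7 ± 2.20 TPM for the MAP2Ks and 70.2 ± 1.80 TPM for the MAPKs, while the MAP3K median was 37.6 ± 1.92 TPM and the MAP4K median 208 ± 5.70 TPM. The MAP2K and MAPK medians were close, but their ranges over the 3 libraries, 61.21 to 65.4 and 68.35 to 71.94 TPM, did not overlap. The DUSP median, 42.1 ± 3.12 TPM, was below that of the MAPKs they act on. Their summed level was nevertheless 1.39 ± 0.0396 times that of the 5 MAPKs, with Dusp2 as the main part.

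Of the 16 pairs of genes at the same or a neighbouring place in the cascade, 16 kept their sign in 3 of 3 libraries. By exact permutation of signs (two-sided) each pair had p = 0.25, the smallest that 3 libraries allow, and an adjusted p of 0.25 over the 16 pairs, so no pair could pass 0.05. Dusp5 exceeded Dusp4 by 3.98 ± 0.38. Spry1 exceeded Spry2 by 3.80 ± 0.82, a size that rests on the 7 counts of Spry2 and on the pseudocount: it was 4.97 with a pseudocount of 0.01 and 1.68 with 1. Dusp2 exceeded Dusp1 by 8.73-fold (Dusp1 minus Dusp2, -3.13 ± 0.45) and Spred2 exceeded Spred1 by 2.68 ± 0.035. Principal transcript lengths changed the sign for Map2k2 with Map2k1 and for Map4k1 with Map4k4. They narrowed Rasa1 over Rasa2 from 1.30 ± 0.012 to 0.54 ± 0.012 and widened Araf over Braf to 3.81 ± 0.027.

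**Figure D4:**
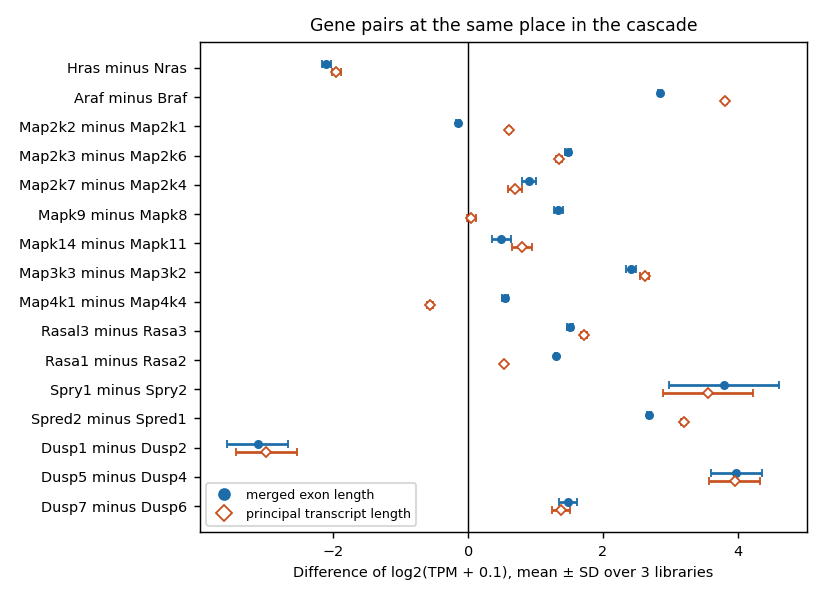
Difference of log2(TPM + 0.1) within each of the 16 pairs, as mean ± SD over 3 libraries, with gene length taken as merged exons (filled circles) or as the principal transcript (open diamonds). The 2 kinds of point lie on opposite sides of 0 for Map2k2 minus Map2k1 and for Map4k1 minus Map4k4, and the open point of Mapk9 minus Mapk8 lies at 0.04.

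Most members had a narrow range over the libraries. The median range of log2 CPM over the 3 libraries was 0.12 for the 41 members tested, and 34 of them had a range under 0.2, or 82.9%. The corresponding median was 0.14 for the 10335 genes with counts at least as high as the lowest of these members, of which 66.8% were under 0.2. Those genes share only a lower limit and were not matched to the members in count. The shares therefore do not show that members were steadier than genes of like abundance. By side, 22 of 25 kinase side genes and 12 of 16 tested inhibitors were under 0.2. At an unadjusted p of 0.05 the goodness of fit by edgeR passed only Dusp1 of the 41 members tested, against 4.1% of all genes. With DESeq2 size factors and dispersion trend 4 of the 41 passed, against 3.54% of all genes. Dusp4, on 268 counts in all, had a range of 0.69, nearly that of Dusp1 at 0.70, and was followed by Map3k5 at 0.36 and Rras2 at 0.30, each of these 3 with an adjusted p of 1 by edgeR's goodness of fit.

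Of the inhibitors, the DUSP, Sprouty and SPRED genes also differed from the kinase side in exon number, which their choice by name did not use. The principal transcripts of the DUSP, Sprouty and SPRED genes had a median of 4 exons in each group, against 12 for the kinase side and 9 for detected protein-coding genes. In the Sprouty and SPRED group that median lies between unlike genes, with 2 exons each for Spry1 and Spry2, 6 for Spred2 and 7 for Spred1. The RAS GAPs, at a median of 24 exons, were unlike the other inhibitors. Of the 42 members, 8 lie on chromosome 11 (Nf1, Ksr1, Map2k3, Map2k4, Map2k6, Mapk9, Map3k3 and Spred2), or 19.0%, where 7.53% of protein-coding genes lie.

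The rest of the pathway was described from 7 further lists with 116 genes, of which 115 were matched and 83 passed 1 TPM in each of the 3 libraries. Of the RAS activators and adaptors 13 of 17 passed, led by the adaptor Lat at 1406 ± 58.1 TPM, the diacylglycerol-activated exchange factor Rasgrp1 at 328 ± 22.1 TPM and Plcg1, which makes that diacylglycerol, at 319 ± 4.41 TPM. In the same list Rasgrf1 and Gab1 had 0 counts. Of the scaffolds 5 of 7 passed, led by Iqgap1 at 123 ± 1.70 TPM, Mapk8ip3 at 94.1 ± 3.15 TPM and Pebp1, which encodes a RAF inhibitor, at 74.2 ± 2.98 TPM. In the list of further RAS family GTPases and GAPs 8 of 12 passed, led by Rap1b at 442 ± 17.1 TPM, Rap1a at 78.4 ± 2.33 TPM and the GAP gene Rasal1 at 53.7 ± 4.87 TPM, with Mras at 0 counts.

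Further kinases of the tiers passed in 22 of 29 cases, with Mink1 at 186 ± 2.72 TPM and Map3k11 at 149.8 ± 2.64 TPM among the highest. Mapk4, Mapk10 (JNK3) and Mapk13 (p38δ) had 0 counts, where 3 pooled counts would amount to 0.0147, 0.00713 and 0.0525 TPM. The remaining DUSP, Sprouty and SPRED genes were mostly silent, with 6 of 15 matched genes passing and a median of 0.166 TPM. Dusp11, an RNA phosphatase, led them at 146.7 ± 6.77 TPM, followed by Dusp12 at 22.4 ± 1.98 TPM and Dusp28 at 20.25 ± 2.325 TPM, and Dusp15 and Dusp26 had 0 counts. Kinases activated by MAP kinases passed in 10 of 11 cases, led by the translation factor kinase Mknk2 at 616 ± 14.9 TPM, Rps6ka1 (RSK1) at 279 ± 4.35 TPM and Mapkapk2 (MK2) at 105 ± 2.65 TPM.

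Immediate early and ERK-responsive transcripts passed 1 TPM in 19 of 24 cases, led by Jund at 535 ± 15.8 TPM, Zfp36 at 378 ± 26.6 TPM and Junb at 328 ± 82.2 TPM. By the goodness of fit, Fos, Jun and Junb were the only 3 of the 92 tested genes in these lists that varied at an adjusted p of 0.05, against 0.533% of all genes. Of the other transcripts of this list, Egr1 was at 69.8, 79.6 and 74.1 TPM and Myc at 146.9, 147.1 and 151.9 TPM, each with an adjusted p of 1 by edgeR. Phlda1, at 8.13, 8.15 and 12.1 TPM, and Fosb, at 1.11, 0.876 and 1.71 TPM, were highest in replicate 4. Egr3, at 64.8, 59.05 and 61.4 TPM, was highest in replicate 2.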

How the data were processed

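The authors deposited 1 table of counts per library, holding raw counts. Each is a number of read pairs assigned to a gene and, per the file headers, was made with featureCounts 1.4.6-p4 on GENCODE vM13 exons (mm10), counting pairs with both ends aligned, on the reverse strand. Settings for multiply aligned reads do not appear there, and how the reads were aligned is not given in the sources used here. Per the file headers a further column gives the merged exon length.

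TPM were computed from counts and merged exon length, which lowers genes with long rare exons and raises a gene such as Dusp22, whose merged exons are shorter than its principal transcript. An alternative used the principal transcript length of GENCODE M21. Symbols were matched by identifier for 50376 of 50600 genes. To test each gene for variation, edgeR 4.0.16 (R 4.3.3) fitted a model with an intercept alone and tested its goodness of fit (TMM scaling, trended dispersion, mean count of 10 or more, Benjamini-Hochberg adjustment at 0.05), because a single group leaves the quasi-likelihood test no contrast. The script was tested on simulated data. DESeq2 1.42.0 was an alternative. Pair contrasts used log2(TPM + 0.1). Python 3.11.15 and scipy 1.17.1 were used. The members and lists were chosen with earlier results of these data known. All members are named, by role. From each other list the 3 highest genes, those that varied and those at 0 counts were to be named, and 1 gene so selected is not reported here. Egr1, Egr3, Myc, Phlda1, Fosb and Hspa1b were named after their values were seen. The text lists deposited with each library were not used.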

Additional observations from a re-analysis of the deposited data

How the results depend on the processing

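The count of members at 1 TPM or more was 41 under every alternative except a threshold of 5 TPM, which left 36. Genes varying among libraries numbered 72, 312 with a common dispersion and 35 to 46 when a library was left out (35 without replicate 2, 39 without replicate 3, 46 without replicate 4); with DESeq2 size factors and dispersion trend they numbered 90. Members varying were 1 (Dusp1) under every other setting and 0 when any 1 library was left out. At an unadjusted p of 0.05 edgeR's goodness of fit passed 2, 2 and 0 of 41 members without replicates 2, 3 and 4. The shares of all genes were 4.03%, 3.63% and 3.6%. The adjusted p of Dusp1 was between 0.00295 and 0.0497 over the settings that kept all libraries. The kinase minus inhibitor difference, 0.87, was 1.18 with means over members and 1.10 with protein kinases alone, and lay between 0.82 and 0.91 when a library was left out. Of 16 pair contrasts, 14 kept their sign without length correction (log2 CPM) and with principal transcript lengths, where Map2k2 minus Map2k1 was 0.59 and 0.60, and Map4k1 minus Map4k4 was -1.09 and -0.57. By construction the principal transcript setting changes only the length. The log2 CPM setting leaves length out and also adds 2 counts to each gene in place of 0.1 TPM. With principal transcript lengths 15 had 1 sign in all 3 libraries. All 16 kept it under both other pseudocounts and without any 1 library. No paired analysis was possible because there is a single group. Depth limits Spry2, Dusp4, Spry1 and Dusp22, with 7, 268, 278 and 308 counts over the 3 libraries.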
